A study of Homo sapiens with 4 samples.

Results

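The genes described here are 52 genes of the lysosome, taken by symbol from a table of 18134 genes measured in PC9 cells, and all 52 had enough reads to be tested. They comprise 8 cathepsins, 21 other hydrolases, 5 membrane proteins, 3 cofactors and regulators (PSAP, GRN and TFEB) and 15 genes of the vacuolar proton pump, the V-ATPase. PC9 is a long-established line of human lung adenocarcinoma cells. The cells had been infected with lentivirus carrying either a control hairpin (shNC) or a hairpin against the mitotic spindle protein TPX2 (shTPX2), and antibiotic selection made the lines stable. Polyadenylated RNA was sequenced as 2 libraries per group, and the sample titles name no batch. The comparison asks whether the lysosomal genes differ in mRNA level after TPX2 knockdown, in a study of TPX2 and autophagy. The labels do not say whether the libraries of a group came from separate cultures, so p-values measure only the spread between these libraries. Each group is moreover a single hairpin, and an effect of the hairpin on other genes cannot be told apart from the knockdown.

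Lysosomes break down proteins, glycans and lipids that arrive by endocytosis or in autophagosomes. Their hydrolases work in acid, which the V-ATPase supplies by turning ATP hydrolysis in its cytosolic V1 sector into proton movement through its membrane V0 sector. Heavily glycosylated membrane proteins such as LAMP1 and LAMP2 line the organelle. The transcription factor TFEB and its relatives bind an E-box, CACGTG, in the promoters of many lysosomal genes, and several hydrolase and V-ATPase genes are textbook targets.

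This E-box was searched for in RefSeq promoter windows (GRCh38.p14, 250 bases before to 50 bases after the transcript start), where 37 of the 52 genes had an entry. Counted by gene, the letters CACGTG, which read the same on both strands, occurred for 11 of the 37 (29.7%). They occurred for 12.4% of 11297 tested genes and 8.77% of all 27305 genes with a window, and in 7.26% of all 35116 windows. The longer palindrome GTCACGTGAC, which contains CACGTG, occurred for 3 of the 37 (8.11%), against 0.85% of the tested genes. It occurred for 0.421% of all genes with a window and in 0.353% of all windows. A match describes the letters only and was not tested as a binding site. Sites of 7 of these genes are shown as examples, namely the 3 with the longer palindrome and those of 2 further V-ATPase genes and of 2 cathepsins, with the E-box or the longer palindrome in capitals and 5′ to 3′ on the strand of the gene.
ATP6V1G1: acgctgtgcgGTCACGTGACaacgggggcg
ATP6V0D1: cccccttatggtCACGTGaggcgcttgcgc
ATP6V0B: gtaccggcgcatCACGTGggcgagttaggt
MCOLN1: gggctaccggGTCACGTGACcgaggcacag
GAA: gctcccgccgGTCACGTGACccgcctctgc
CTSA: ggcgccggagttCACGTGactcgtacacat
CTSD: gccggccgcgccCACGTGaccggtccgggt
The ATP6V1G1 site lies at chr9:114587699-114587728 on the plus strand, and its CACGTG begins 58 bases before the transcript start, from which the sites of the other genes are counted in the same way. The ATP6V0D1 site lies at chr16:67481199-67481228 on the minus strand, with CACGTG beginning 59 bases before the start. The ATP6V0B site lies at chr1:43974909-43974938 on the plus strand, 39 bases before the start. The MCOLN1 site lies at chr19:7522598-7522627 on the plus strand, 14 bases before the start. The GAA site lies at chr17:80101538-80101567 on the plus strand, 31 bases before the start. The CTSA site lies at chr20:45891298-45891327 on the plus strand, 25 bases before the start, and the CTSD site at chr11:1763957-1763986 on the minus strand, 47 bases before the start. The other 4 genes with the E-box were ARSB, CLN3, LAMP1 and NEU1. The windows of ATP6V0B, MCOLN1, GAA, CTSA and CLN3 held 2 CACGTG cores each and that of LAMP1 held 6. Where such a gene is shown, only a single site is given.

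The deposited expected counts, which are estimated reads per gene, summed to between 20906441 and 21972583 per library, and 14048 genes were tested. Values in single libraries are given as TMM-normalized CPM, that is counts scaled to the depth of the library after a correction for the composition of the library. TPM, which also divides by transcript length, is used where levels of different genes are compared. TPX2 itself measured 89.0 and 175 CPM in shNC 1 and 2 and 76.5 and 74.5 CPM in shTPX2 1 and 2. The shNC 2 library was thus well above the other libraries, and shNC 1 lay close to the shTPX2 pair. The edgeR log2 fold change of TPX2 was −0.81 (SE 0.315, adjusted p = 0.618), and without shNC 2 it was −0.24. The 21-base hairpin target cgtgaacttgatcccagaata had 0 exact matches among the 754 GENCODE v29 transcripts of the lysosomal genes. Only exact matches over all 21 bases were counted, so this does not show whether the hairpin acted on the lysosomal genes through partial matches. Epithelial genes summed to between 20500 and 28100 TPM in the shNC and between 24400 and 26300 TPM in the shTPX2 libraries, with 4 keratins and EPCAM high and the lung markers NKX2-1, NAPSA, SFTPB and SFTPC at or near 0. Of 8 listed leukocyte and macrophage genes 7 had an entry, and PTPRC averaged 0.555 TPM, the lowest mean of those tested. In each group 3 of the 7 were at 1 TPM or more in both libraries. The highest single value was 27.3 TPM in shNC and 14.2 TPM in shTPX2. Together the 7 reached 19.8 to 38.4 TPM in shNC and 17.2 to 25.9 TPM in shTPX2. The 8 fibroblast and endothelial genes reached 29.1 to 45.0 and 37.0 to 44.8 TPM.

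The lysosomal genes were expressed well above the typical gene. Their mean TPM ran from 4.66 for ARSB to 1543 for the aspartic protease CTSD, a 331-fold span, and 47 of the 52 lay above 17.0 TPM, the median of the tested genes. CTSD, PSAP (1070.4 TPM) and ATP6V0C (751 TPM) stood at the top. Together the 52 genes took 0.937% and 1.08% of all TPM in shNC 1 and 2, and 0.79% and 1.14% in shTPX2 1 and 2. Both extremes of this share lay within the shTPX2 group. Since the samples are bulk RNA, fewer cells of a kind and less RNA per cell cannot be told apart.

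Across the 52 genes no common shift between the groups was seen. The log2 fold change, shTPX2 against shNC, was above 0 for 25 genes and below 0 for 27, with a median of −0.0058, beside −0.0085 over all tested genes. It ranged from −0.36 for LAMP2 to 0.52 for GLA. At an edgeR adjusted p under 0.05 no lysosomal gene was called (smallest 0.597), and the background was 0.0% of all tested genes (smallest adjusted p 0.109). DESeq2 called 111 genes at that threshold, among them 0 of the 52. At an unadjusted edgeR p under 0.05, 1 of the 52 was called (ATP6V1G1, higher), against 8.03% of all tested genes, 3.13% higher and 4.9% lower. The study's own criteria (limma voom, unadjusted p no higher than 0.1, log2 fold change beyond ±0.3) were met by 4 of the 52, against 14.2% of all genes. These were GLA, ATP6V1F, ATP6V1G1 and ATP6V0C, all higher in shTPX2, where 6.24% of all genes were called higher and 7.99% lower. The count of 4 thus lay below the background share, and 3 of the 4 genes encode V-ATPase subunits. The split moved with the scaling and the libraries: it was 1 higher (ATP6V1G1) and 2 lower (LAMP2 and ATP6V1H) both by library size alone and on log2(TPM + 1), and 1 higher (ATP6V1G1) and 1 lower (LAMP2) with quantile normalization. Without shTPX2 1 it was 12 higher and 0 lower, and without shTPX2 2 it was 0 higher and 4 lower (CTSH, GRN, LAMP2 and LGMN).

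Whether the 2 libraries of a group lay entirely above or below those of the other was also counted. By TMM-normalized CPM, 8 of the 52 genes were higher in both shTPX2 libraries (GLA, IDS, ACP2, ATP6V1D, ATP6V1F, ATP6V1G1, ATP6V0C and ATP6V0D1) and 5 were lower in both (CTSZ, LAMP2, SCARB2, ATP6V1A and ATP6V1H). Among all tested genes 39.6% had groups that did not overlap, 19.4% higher and 20.2% lower. On log2(TPM + 1) the median log2 fold change of all genes was −0.099, against −0.0085 from the counts, and by TPM the split was 4 higher and 11 lower among the 52, and the groups of 41.0% of all genes did not overlap, 10.7% higher and 30.3% lower.

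**Figure D1:**
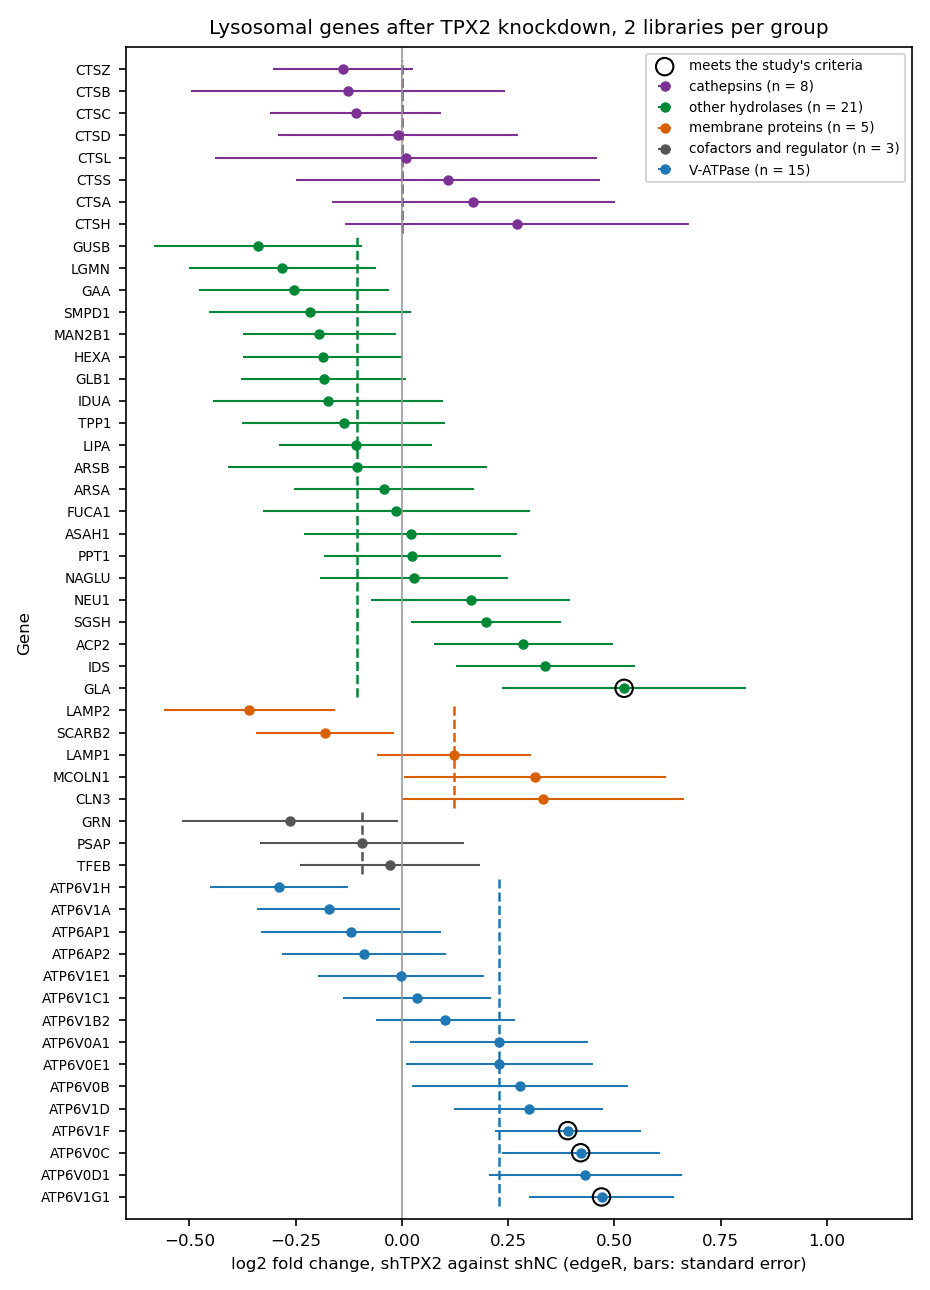
Log2 fold change of each lysosomal gene, shTPX2 against shNC, from the edgeR fit on 2 libraries per group, with standard errors as bars, colours for the classes and dashed lines at the class medians. The 4 ringed genes, GLA, ATP6V1F, ATP6V0C and ATP6V1G1, met the study's criteria, and the V-ATPase median lay at 0.23 while the cathepsin median lay at 0.00016.

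The cathepsins are proteases of the lysosome, and none of the 8 met the study's criteria. Their log2 fold changes ran from −0.14 for CTSZ to 0.27 for CTSH, 4 above and 4 below 0, with a median of 0.00016. CTSD, the abundant aspartic endoprotease, measured 1519 and 1703 CPM in the shNC libraries and 1195 and 2007 CPM in the shTPX2 libraries. The shTPX2 pair therefore lay outside the shNC pair on either side, and the means were 1611 ± 130.3 and 1601 ± 574 CPM (SD, n = 2). CTSA, the serine carboxypeptidase that also protects neuraminidase and β-galactosidase, measured 384 and 469.6 CPM in shNC and 321 and 638 CPM in shTPX2. CTSH, an aminopeptidase, measured 234 and 253 CPM in shNC and 166 and 421 CPM in shTPX2, the widest gap of a shTPX2 pair among the cathepsins on the log2 scale. All 3 genes were lowest in shTPX2 1 and highest in shTPX2 2, so the direction of CTSH hung on which of these was read: its log2 fold change of 0.27 (SE 0.405, edgeR adjusted p = 0.892) became 0.80 without shTPX2 1 and −0.54 without shTPX2 2.

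Of the cathepsins, CTSB, CTSL and CTSS differed most between the controls, with shNC 2 above shNC 1 by 1.19, 1.02 and 1.04 on the log2 scale. For the other 5 cathepsins this gap was 0.29 or less. CTSB measured 152 and 347 CPM in shNC and 237 and 219 CPM in shTPX2, so both shTPX2 values lay between the shNC values. Its log2 fold change of −0.13 (SE 0.369) was −0.59 without shNC 1 and 0.58 without shNC 2. CTSL, a potent endoprotease, measured 48.5 and 98.4 CPM in shNC and 46.3 and 102 CPM in shTPX2, with library 2 about as far above library 1 in either group. CTSS, best known from antigen-presenting cells, was low throughout, at 11.1 and 23.0 CPM in shNC and 16.8 and 20.0 CPM in shTPX2. The group means of CTSL, 73.5 and 74.0 CPM, and of CTSS, 17.1 and 18.4 CPM, were closer than the spread within a group.

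CTSC, the dipeptidyl peptidase that activates serine proteases of granules, measured 233 and 261 CPM in shNC and 198 and 259 CPM in shTPX2, and its groups overlapped. CTSZ, a carboxypeptidase, measured 158 and 177 CPM in shNC and 152 and 152 CPM in shTPX2. It was the only cathepsin whose groups did not overlap, with a log2 fold change of −0.14 (SE 0.165, edgeR adjusted p = 0.861). In summed TPM the 8 cathepsins gave 2701 and 3291 in shNC 1 and 2 and 2059 and 3537 in shTPX2 1 and 2.

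The other 21 hydrolases, which cut glycans, sulfate esters, lipids and peptides, had 8 log2 fold changes above and 13 below 0, with a median of −0.10. GLA, the α-galactosidase lost in Fabry disease, was the only hydrolase at the study's criteria. It measured 18.6 and 31.8 CPM in shNC and 32.1 and 40.3 CPM in shTPX2 (means 25.2 ± 9.28 and 36.2 ± 5.74, SD, n = 2). The groups did not overlap, but shNC 2 and shTPX2 1 almost met, and shNC 1 was the low value. The edgeR log2 fold change was 0.52 (SE 0.286, adjusted p = 0.702) and the unadjusted p of limma voom was 0.0975. GLA met the criteria in 3 of 9 alternatives that kept all libraries and in 2 of 4 that left out a library. Its log2 fold change was 0.20 without shNC 1 and 0.95 without shNC 2.

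IDS, the iduronate sulfatase lost in Hunter syndrome, measured 341 and 295 CPM in shNC and 344 and 459 CPM in shTPX2. Its groups were apart only by the narrow step from 341 to 344, and the log2 fold change was 0.34 (SE 0.211, edgeR adjusted p = 0.737), or 0.54 without shTPX2 1 and 0.12 without shTPX2 2. GUSB, the β-glucuronidase often used as a reference gene, measured 52.5 and 75.5 CPM in shNC and 43.0 and 58.2 CPM in shTPX2. Its log2 fold change was −0.34 (SE 0.245, edgeR adjusted p = 0.773), or −0.059 without shNC 2, and the groups overlapped. PPT1, which removes palmitate from proteins and was the most abundant of these 21 at 334 TPM, measured 357 and 401 CPM in shNC and 330.4 and 441 CPM in shTPX2, with the shTPX2 pair again on either side of the controls.

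By CPM the remaining hydrolases had groups that overlapped, except the acid phosphatase ACP2 (log2 fold change 0.29, higher in both shTPX2 libraries). By TPM the groups of GLA, IDS and ACP2 overlapped too, and HEXA, MAN2B1, SMPD1, LIPA and LGMN were lower in both shTPX2 libraries. Of the other enzymes of glycan and glycogen breakdown, those below 0 were GAA at −0.25, MAN2B1 at −0.19, HEXA at −0.19, GLB1 at −0.18, IDUA at −0.17 and FUCA1 at −0.014. Those above 0, beside GLA and IDS, were the sialidase NEU1 at 0.16 and the heparan sulfate enzymes SGSH at 0.20 and NAGLU at 0.029. The sulfatases ARSA and ARSB lay at −0.041 and −0.10. Of the lipid enzymes, the sphingomyelinase SMPD1 lay at −0.22, the acid lipase LIPA at −0.11 and the ceramidase ASAH1 at 0.021. The peptidases LGMN and TPP1 lay at −0.28 and −0.14. The standard errors of the 21 genes ran from 0.177 to 0.314, so most of these values were smaller than their own error.

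PSAP, GRN and TFEB were included as a precursor of activator proteins for lipid hydrolysis, a precursor of lysosomal granulins and the transcription factor of the pathway. PSAP measured 1356 and 1787 CPM in shNC and 1275 and 1668 CPM in shTPX2, and GRN measured 519 and 654 CPM in shNC and 390.3 and 587 CPM in shTPX2. The groups of both genes overlapped, with log2 fold changes of −0.095 and −0.26. TFEB measured 16.6 and 15.5 CPM in shNC and 16.6 and 14.9 CPM in shTPX2. Its 4 values were close, with a log2 fold change of −0.028 (SE 0.211, edgeR adjusted p = 0.981). TFEB mRNA does not report on the activity of the protein, which is set largely by phosphorylation and by its move to the nucleus.

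The 5 membrane proteins split, with LAMP1, MCOLN1 and CLN3 above 0 and LAMP2 and SCARB2 below 0. LAMP2, of which an isoform is the receptor of chaperone-mediated autophagy, measured 240.3 and 277 CPM in shNC and 176 and 227 CPM in shTPX2. Both shTPX2 values lay below both shNC values, and the log2 fold change of −0.36 (SE 0.201, edgeR adjusted p = 0.702) was the lowest of the 52. It was −0.18 without shTPX2 1 and −0.55 without shTPX2 2. SCARB2, the sorting receptor of glucocerebrosidase, measured 152 and 164 CPM in shNC and 140.0 and 138 CPM in shTPX2, with a log2 fold change of −0.18 (SE 0.161). LAMP1 measured 546 and 502 CPM in shNC and 533 and 608 CPM in shTPX2, and its groups overlapped at a log2 fold change of 0.12 (SE 0.182). LAMP1 and LAMP2 thus had log2 fold changes of opposite sign, though LAMP1 was at −0.015 on the log2(TPM + 1) scale, and the difference between them was not tested.

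MCOLN1, the calcium channel of the lysosome and among the genes with the full palindrome shown above, measured 19.0 and 14.7 CPM in shNC and 15.5 and 26.4 CPM in shTPX2. Only shTPX2 2 stood out, and the log2 fold change was 0.31 (SE 0.308). CLN3, a membrane protein lost in juvenile Batten disease, gave 0.33 (SE 0.331) in the same way, with 124 CPM in shTPX2 1 and 240.4 CPM in shTPX2 2. The median of the 5 genes was 0.12, and it was −0.17 without shTPX2 2.

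The V-ATPase genes lay higher than the hydrolases, with 10 of 15 above 0 (8 of 15 on the log2(TPM + 1) scale) and a median log2 fold change of 0.23. The 5 genes of the V0 sector were all above 0, with a median of 0.28, though ATP6V0B and ATP6V0E1 were at −0.042 and −0.061 without shTPX2 2, and the 8 genes of the V1 sector had 5 above and 3 below, with a median of 0.069. The accessory genes ATP6AP1 and ATP6AP2 lay at −0.12 and −0.090. Without shTPX2 2 the median of the 15 was −0.042, with 7 above and 8 below 0, and on the log2(TPM + 1) scale it was 0.080. No test was made of the class as a whole.

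ATP6V1G1, the G subunit of the peripheral stalk, gave the smallest p of the 52 genes. It measured 129.6 and 121 CPM in shNC and 161 and 186 CPM in shTPX2 (means 125 ± 6.06 and 174 ± 17.8, SD, n = 2). Both shTPX2 libraries lay above both controls, and the gap between the groups exceeded the spread within either. The gene was named for its p, so groups that stand apart add nothing further. By CPM the groups of 39.6% of all tested genes did not overlap. The edgeR log2 fold change was 0.47 (SE 0.171, a 1.38-fold higher level), with an unadjusted p of 0.0316 and an adjusted p of 0.597. It met the study's criteria in all 9 alternatives that kept every library and in 3 of the 4 that left out a library, being lost without shTPX2 2. The gene lies at chr9:114587769-114598879 in GRCh38.p14, and GENCODE v29 names 5 pseudogenes of it, none in the deposited table. Its share of reads is therefore less certain than that of a gene with no copy.

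ATP6V1F, the F subunit of the central stalk, and ATP6V0C, the proteolipid of the proton-carrying ring, also had both shTPX2 libraries above both controls, with shTPX2 2 the highest. Both genes were named because they met the study's criteria, so this too adds nothing further. ATP6V1F measured 93.7 and 100.1 CPM in shNC and 116 and 138 CPM in shTPX2, with a log2 fold change of 0.39 (SE 0.172, edgeR adjusted p = 0.647). ATP6V0C measured 353 and 349 CPM in shNC and 423 and 516 CPM in shTPX2, with a log2 fold change of 0.42 (SE 0.186, edgeR adjusted p = 0.647). Each met the study's criteria in 6 of the 9 alternatives that kept all libraries. When a library was left out, ATP6V1F was called in 2 of 4 cases and ATP6V0C in 1 of 4. ATP6V0C has 4 named pseudogenes, so its share of reads is likewise less certain than that of a gene with no copy.

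ATP6V0D1, the subunit that joins V0 to the central stalk, measured 122 and 97.5 CPM in shNC and 123 and 173 CPM in shTPX2. Its log2 fold change of 0.43 (SE 0.227, edgeR adjusted p = 0.689) rested largely on shTPX2 2, since shTPX2 1 was barely above shNC 1, and was 0.17 without shTPX2 2. The other V0 genes ATP6V0A1, ATP6V0B and ATP6V0E1 lay at 0.23, 0.28 and 0.23 and had groups that overlapped. All 5 V0 genes were highest in shTPX2 2.

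The V1 genes did not all lie on the same side. ATP6V1D, of the central stalk, lay at 0.30 and was higher in both shTPX2 libraries, while the catalytic subunit gene ATP6V1A lay at −0.17 and the regulatory subunit gene ATP6V1H at −0.29, and these were lower in both. ATP6V1H measured 41.4 and 42.5 CPM in shNC and 33.4 and 35.2 CPM in shTPX2. Its spread within groups was small, yet the edgeR adjusted p was 0.702 (SE 0.162). ATP6V1B2, ATP6V1C1 and ATP6V1E1 lay at 0.10, 0.036 and −0.0024.

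Several V-ATPase subunits are encoded by more than 1 gene, so the alternative isoforms outside the 52 were read beside them in TPM. For the B subunit the members of the pair differed: the shNC libraries held 31.21 and 35.8 TPM of ATP6V1B1, the isoform known from kidney and inner ear, and the shTPX2 libraries 10.27 and 14.8 TPM. ATP6V1B2 had 34.3 and 30.43 TPM in the controls against 32.26 and 30.8 TPM after knockdown. ATP6V1B1 thus made up 47.6% and 54.1% of the B subunit TPM in the controls and 24.1% and 32.5% after knockdown. The log2 fold change of ATP6V1B1 was −1.30 (SE 0.237), with an unadjusted edgeR p of 0.00126, an edgeR adjusted p of 0.439 and a DESeq2 adjusted p of 0.00327. That of ATP6V1B2 was 0.10 (SE 0.164), and the difference between the isoforms was not tested.

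The other duplicated subunits were carried mainly by 1 gene in every library. ATP6V1G1 gave at least 99.1% of the G subunit TPM, ATP6V0D1 at least 99.2% of the d subunit, ATP6V1E1 at least 95.2% of E, ATP6V0E1 at least 85.1% of e and ATP6V1C1 at least 80.8% of C. For the a subunit the most abundant gene was TCIRG1, with 61.6% to 75.2%, ahead of ATP6V0A1 with 17.6% to 29.2%.

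Among 21 further V-ATPase subunit and assembly genes in the table, 19 were tested, and 3 were higher and 5 lower at the study's criteria, where 6.24% of all tested genes were called higher and 7.99% lower. The higher genes were ATP6V0E2, an e isoform, at 0.40, TMEM199, an assembly factor, at 0.64 and ROGDI at 0.46. The 4 with the smallest p were all lower: ATP6V1B1, the d isoform ATP6V0D2 at −1.25, the a isoform ATP6V0A4 at −0.92, and NCOA7, a V-ATPase binding protein, at −0.50. ATP6V0D2 was present at 1.15 TPM or less in every library. Among 31 further genes listed as lysosomal membrane proteins, which include the soluble protein NPC2, 1 was higher and 4 were lower. CTNS, the cystine exporter, measured 22.7 and 20.8 CPM in shNC and 31.4 and 36.8 CPM in shTPX2, with a log2 fold change of 0.65. TMEM106B, which regulates lysosome size and movement, measured 72.9 and 70.9 CPM in shNC and 45.7 and 37.6 CPM in shTPX2, a log2 fold change of −0.79 (SE 0.174, edgeR adjusted p = 0.46). The sialic acid exporter SLC17A5 and the nucleic acid transporter SIDT2 lay at −0.56 and −0.57. These genes were named because they met the criteria, so groups that stand apart add nothing further. By CPM the groups of 39.6% of all tested genes did not overlap.

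A list of 32 further hydrolases and activators tested includes the cytosolic peptidase TPP2. Of these 32, 0 were higher and 3 lower at the study's criteria (CTSO at −0.73, CTBS at −0.61 and PRCP at −0.43), beside 7.99% of all tested genes called lower. Of the 32 log2 fold changes 10 were above 0, beside 48.9% over all tested genes. Of 15 genes that sort enzymes to lysosomes, 2 were higher and 0 lower. Of all tested genes 6.24% were called higher and 7.99% lower, and these shares also stand beside the lists that follow. The 2 higher genes were CLN6 at 0.83, an endoplasmic reticulum protein needed for enzyme export, and the retromer gene VPS29 at 0.33. Of 15 genes of the TFEB family, Ragulator and folliculin, 1 was lower, RRAGD, a Rag GTPase of the mTORC1 pathway, at −1.11. TFE3 and MITF, the relatives of TFEB, lay at −0.028 and 0.00024. Of 7 cystatins, which inhibit cysteine cathepsins, 1 was higher. This was CSTB, with 364 and 406 CPM in shNC and 545 and 603 CPM in shTPX2 and a log2 fold change of 0.57 (SE 0.180, edgeR adjusted p = 0.579). None of these genes passed an edgeR adjusted p under 0.05.

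The largest regular difference among the 52 genes lay within the shTPX2 group. The value of shTPX2 2 was above that of shTPX2 1 for 44 of the 52 (84.6%), against 48.1% of all tested genes. The median difference between these libraries was 0.37 on the log2 scale over the 52 and −0.015 over all genes. For 27 of the 52 (51.9%) shTPX2 1 was the lowest of the 4 libraries, against 20.9% of all genes. shTPX2 2 was likewise the highest library for 27 of the 52 (51.9%, against 24.8%). Between the controls the median difference was 0.15, with shNC 2 above shNC 1 for 36 of the 52 (69.2%) and 50.3% of all genes. For the cathepsins shNC 2 was above shNC 1 in 8 of 8, with a median gap of 0.23, and shTPX2 2 above shTPX2 1 in 6 of 8. For the other hydrolases these counts were 15 and 19 of 21. They were 2 and 4 of 5 for the membrane proteins and 9 and 13 of 15 for the V-ATPase. These are counts over genes of the same libraries and carry no test.

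By class, the median gap between the shTPX2 libraries was 0.57 for the cathepsins, 0.41 for the other hydrolases, 0.37 for the membrane proteins and 0.27 for the V-ATPase. It reached 0.49 in the V0 sector and was 0.14 in the V1 sector. CTSH had a gap of 1.34, CTSL 1.13, CTSA 0.99, CLN3 0.95 and MCOLN1 0.77. The 11 genes with an E-box in the promoter window had a median gap of 0.59 and a median log2 fold change of 0.17 (8 above 0, 3 below), while the 26 with a window and no E-box had 0.34 and −0.059 (10 above, 16 below). The 15 genes with no window had 0.30 and −0.041. The genes with an E-box include ATP6V1G1, ATP6V0D1 and ATP6V0B of the V-ATPase. Medians for all tested genes with the E-box are not given here, and the split was not tested. Among the further lists the median gap was 0.16 for the hydrolases, 0.13 for the membrane proteins, −0.019 for the V-ATPase and assembly genes, 0.033 for the sorting genes, 0.20 for the TFEB, Ragulator and folliculin genes (shTPX2 2 higher in 12 of 15) and 0.74 for the cystatins (5 of 7). TPX2 did not differ between these libraries in the same way, at 76.5 and 74.5 CPM, and what separates shTPX2 1 from shTPX2 2 was not tested.

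Some of the values could hold reads of other genes. In GENCODE v29, 11 of the 52 genes have exons that overlap those of another listed gene, 9 of them on the opposite strand, and the strand setting of the counting is not given in the sources used here. Among the genes described, CTSA overlaps PLTP (364 TPM), PPT1 overlaps CAP1 (348 TPM), ATP6V1D overlaps EIF2S1 (45.7 TPM), ACP2 overlaps NR1H3 (41.4 TPM) and ATP6V1F overlaps KCP (4.6 TPM), all on opposite strands, and MCOLN1 overlaps PNPLA6 (61.1 TPM) on the same strand. A further 33 named pseudogenes belong to 9 of the 52, among them ATP6V1G1, ATP6V0C, CTSL, GUSB and IDS, and were not in the table.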

How the data were processed

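RNA of 2 shNC and 2 shTPX2 PC9 libraries was analysed. According to the methods, SOAPnuke cleaned the reads, HISAT2 or Bowtie2 aligned them and RSEM or StringTie quantified them. The submitters' processing notes instead name HISAT2, featureCounts, DESeq2 and GRCh38, and the annotation and strand setting are not given in the sources used here. The authors deposited expected counts (estimated counts, 42.15% to 44.58% of genes not whole in a library), FPKM and TPM per gene. The authors deposited TPM values scaled to the same total in each library, and FPKM values were not used. Columns of group averages did not match the means of these libraries (2 of 12161 shNC genes and 6 of 11850 shTPX2 genes with a mean over 50 matched within 0.01) and were not used.

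Expected counts were rounded to 0 decimals. In R 4.3.3, genes passing filterByExpr were compared by edgeR 4.0.16 (glmQLFit and glmQLFTest, a quasi-likelihood test, TMM, Benjamini-Hochberg over 14048 genes, SE as log2 fold change over the root of F). The study's criteria used limma 3.58.1 with voom, and DESeq2 1.42.0 was an alternative. The fits were tested on simulated data. Depth was 20906441 to 21972583 expected counts, and the common dispersion of 0.0485 limits precision more than counting error does. Alternatives were other normalizations and filters, log2(TPM + 1) in limma, a replicate block and leaving out each library. Genes were named by a fixed rule: every cathepsin, LAMP1, LAMP2, MCOLN1 and TFEB, and in each other class the genes called, the 3 smallest p and the highest TPM, and of further lists up to 4 called genes. Other genes named with values (ATP6V0D1, ATP6V1H and the isoform pairs among them) were chosen after their values were seen. The 52 genes, the further lists and the motifs were chosen with earlier results of these data known. Promoter windows and gene positions came from RefSeq (GRCh38.p14).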

Additional observations from a re-analysis of the deposited data

How the results depend on the processing

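None of the 52 lysosomal genes passed an adjusted p under 0.05 in any alternative (smallest 0.277). Of 416 log2 fold changes recomputed with all libraries kept, 26 changed sign, in 12 genes. Scaling by library size alone gave −0.047 for ASAH1, −0.032 for ATP6V1C1, −0.064 for CTSL, −0.037 for NAGLU and −0.044 for PPT1. On log2(TPM + 1), ASAH1 was at −0.13, ATP6V1B2 at −0.034, ATP6V1C1 at −0.092, CTSA at −0.031, CTSH at −0.0019, CTSL at −0.14, LAMP1 at −0.015, NAGLU at −0.12 and PPT1 at −0.12. With voom, ASAH1 was at −0.0086, CTSL at −0.012 and FUCA1 at 0.030. Without a filter, ATP6V1E1 was at 0.015, CTSD at 0.0080 and FUCA1 at 0.0060, with at least 10 counts CTSL was at −0.0012, and RLE factors and DESeq2 each put ATP6V1E1 at 0.0012.

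The main count of 4 lysosomal genes at the study's criteria became 2 with quantile normalization (1 higher, 1 lower), and the 1 gene at an unadjusted p under 0.05 became 0 by library size alone and 2 with DESeq2. With limma on log2(TPM + 1) the 1 gene was instead ATP6V1H, lower in shTPX2 (unadjusted p = 0.0421), and ATP6V1G1 was at 0.0712. By library size alone the split of all genes at the study's criteria was 578 higher and 1445 lower. DESeq2 called 111 genes at an adjusted p under 0.05 and limma on log2(TPM + 1) called 1. The V-ATPase median on that scale was 0.080. The causes were not tested.

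The library number was also fitted as a replicate block. The labels do not say that it pairs the libraries, and same-numbered libraries deviated together only weakly (r = 0.182 across genes). With the block 5 lysosomal genes had an unadjusted p under 0.05 (4 higher, 1 lower) and 6 met the study's criteria (4 higher, 2 lower). In all 2447 genes met them, and ASAH1 was at −0.0085, CTSL at −0.010 and FUCA1 at 0.029.

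Leaving out each library in turn gave 0 to 23 genes at an adjusted p under 0.05, 1018 (without shTPX2 2) to 3515 (without shNC 1) genes and 4 to 12 (without shTPX2 1) lysosomal genes at the study's criteria, 12 higher and 0 lower without shTPX2 1 and 0 higher and 4 lower without shTPX2 2, and 0 to 4 lysosomal genes at an unadjusted p under 0.05. The lone library of a group is then taken to vary like the others. The medians ran from −0.36 to 0.32 for cathepsins, −0.26 to 0.12 for other hydrolases, −0.17 to 0.22 for membrane proteins, −0.042 to 0.34 for the V-ATPase and −0.19 to 0.18 for all 52, each lowest without shTPX2 2. Signs changed in 28 genes. The ranges were −0.25 to 0.22 for ARSA, −0.50 to 0.22 for ARSB, −0.33 to 0.31 for ASAH1, −0.35 to 0.087 for ATP6AP1, −0.23 to 0.071 for ATP6AP2, −0.042 to 0.55 for ATP6V0B, −0.061 to 0.48 for ATP6V0E1, −0.10 to 0.17 for ATP6V1C1, −0.19 to 0.18 for ATP6V1E1 and −0.21 to 0.74 for CLN3. They were −0.41 to 0.59 for CTSA, −0.59 to 0.58 for CTSB, −0.31 to 0.079 for CTSC, −0.42 to 0.32 for CTSD, −0.54 to 0.80 for CTSH, −0.66 to 0.60 for CTSL, −0.31 to 0.72 for CTSS and −0.37 to 0.48 for FUCA1. The rest were −0.58 to 0.0089 for GRN, −0.54 to 0.13 for IDUA, −0.27 to 0.069 for LIPA, −0.12 to 0.66 for MCOLN1, −0.23 to 0.26 for NAGLU, −0.18 to 0.45 for NEU1, −0.19 to 0.22 for PPT1, −0.29 to 0.11 for PSAP, −0.10 to 0.054 for TFEB and −0.43 to 0.12 for TPP1. In all, 22 of the 52 genes kept their sign in every alternative.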
